A study of Mus musculus with 16 samples.

Results

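The subject is the difference between 2 sets of wildtype (WT) kidneys that had the same genotype and the same injury. All 4 arrays labelled WT set 2 UUO were compared with all 3 labelled WT set 1 UUO, 7 of the 16 arrays of the series, over 18132 genes, and the choice used the labels alone. UUO, unilateral ureteral obstruction, was made by closing 1 ureter with a metal clip, and the obstructed kidney was collected 24 h later. The WT mice were C57BL/6J BomTac, 8 weeks old according to the methods, each array held the RNA of 1 kidney, and each kidney goes by its label's number. What else separated the sets (day of surgery, litter, array run) is not given in the sources used here, so these cannot be told apart. Kidneys of IL-33-deficient mice backcrossed to the same strain, 2 of set 1 and 3 of set 2, were collected at 24 h after UUO as well and served for the same contrast in other animals. Untreated controls were 2 WT and 2 IL-33-deficient kidneys, whose set is not stated. Where nothing more is known of the animals, p-values measure the spread between these kidneys.

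An obstructed ureter raises the pressure in the tubules. Injured proximal tubule cells then switch on genes such as Havcr1, which encodes kidney injury molecule 1, while tubules lose the transporters and enzymes that define each segment. Infiltrating leukocytes, stress programs such as heat shock proteins, and matrix-forming cells add to the transcripts of the whole organ. In bulk tissue, fewer cells of a type and less RNA per cell cannot be told apart. Values below are log2 of quantile-normalised intensities, on which 1 unit is a doubling of brightness and the floor of the array lies near log2 7, so differences of dim genes are compressed.

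One kidney of set 1 stood apart through high values of genes typical of hepatocytes, and the origin of these transcripts was not tested. Mup1, a major urinary protein made by hepatocytes, was at 12.05 in kidney 3818 and between 6.77 and 6.96 on the other 15 arrays. Hpx, the haem carrier hemopexin, was at 10.43 against 6.90 to 7.22. Apoa1, the main protein of high-density lipoprotein, was at 9.75 in kidney 3818, at 6.97 and 6.96 in the other kidneys of set 1 and between 6.93 and 7.02 in set 2. Of 53 measured genes from a list of hepatocyte genes written after these values were seen, 40 were highest in kidney 3818 of all 16 arrays, 21 of them by more than 1 log2 unit. The mean of the list was 8.84 in kidney 3818, between 7.51 and 7.63 in the other 6 WT kidneys after UUO and between 7.40 and 7.62 on the remaining 9 arrays. The signal did not extend to every member. Alb, albumin, stayed below 7.5 on all 16 arrays, as did 14 other members, and Ttr, transthyretin, was at 10.94 in kidney 3818 within a range of 8.25 to 13.12 on the others. Cfd, adipsin, a gene of fat cells picked after its values were seen, was at 9.20 in kidney 3818 and at 8.79 in IL-33-deficient kidney 3822. It lay between 6.96 and 7.28 in the other 6 WT kidneys after UUO. Cfd belongs to a list of 20 genes of fat, adrenal and muscle tissue, of which 1 was brighter than the median gene. The mean of that list above WT controls, with Cfd included, was 0.13 in kidney 3818 and 0.10 in 3822. It was not computed without Cfd, and the median over the list for WT set 1 minus control was -0.0027. Whether these kidneys held fat tissue was not tested. Without the 53 genes the number of genes called between the sets was still 1 of 18079.

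**Figure D1:**
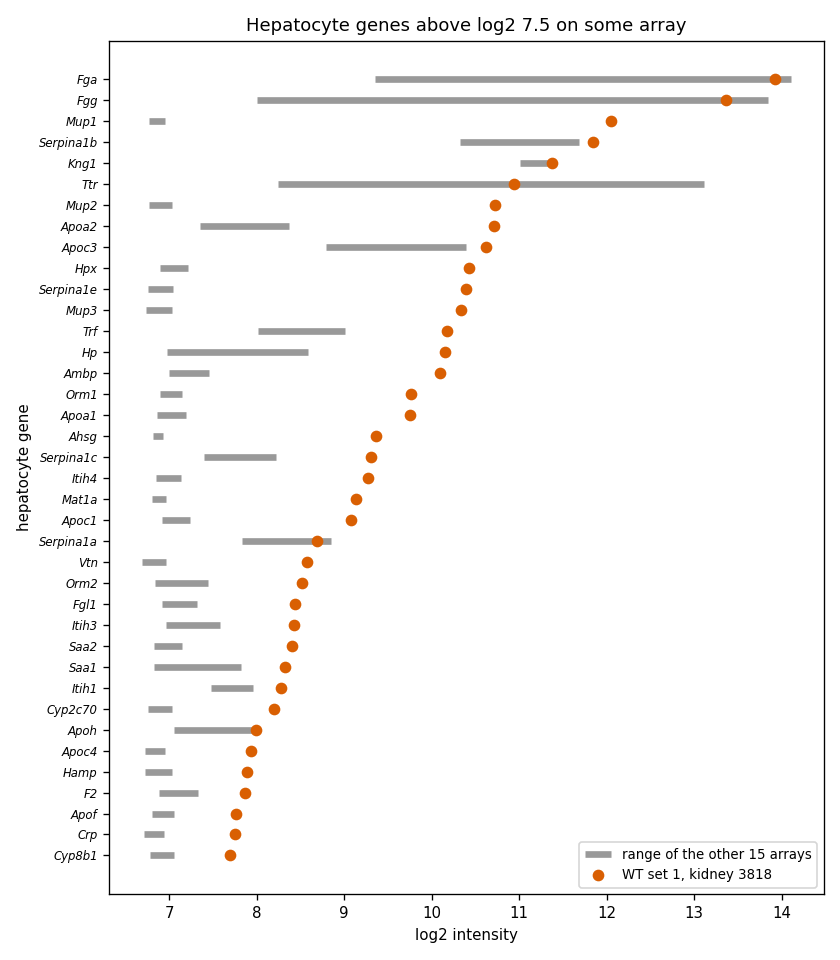
Log2 intensity of the 38 hepatocyte genes that reached log2 7.5 on some array. Points are kidney 3818 of WT set 1 and grey bars span the lowest to the highest of the other 15 arrays. Most points lie beyond the bars, with Mup1 at 12.05 the farthest, and Fga, Fgg, Ttr, Serpina1a and Kng1 lie within them.

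Between the sets, 1 gene passed an adjusted p of 0.05 by limma, which was 0.00552% of the genes tested. It was Vapa, a protein of the endoplasmic reticulum that tethers it to other membranes. Vapa was at 8.68, 8.67 and 8.71 in set 1 (kidneys 3818, 3819 and 3820, the order used throughout) and at 9.33, 9.31, 9.18 and 9.32 in set 2 (kidneys 3895, 3892, 3893 and 3894). The sets did not overlap, and the difference was 0.60 (SE 0.05, limma adjusted p = 0.0433). Leaving out any 1 of 6 of the 7 kidneys changed the count of called genes: it was 0 without 3818, 3820, 3895, 3892 or 3894 and 1049 without 3819. An unadjusted p under 0.05 was reached by 1808 genes, 946 higher and 862 lower in set 2. In 881 genes every kidney of set 2 was above every kidney of set 1 (4.86% of all), and in 765 every kidney was below (4.22%). Over all genes the median difference was 0.00094, with 50.5% of genes higher in set 2.

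Read by sets, the comparison concealed how unlike the 3 kidneys of set 1 were. Of the sum of squared deviations over the 7 kidneys and all genes, 55.0% lay within set 1, 18.7% within set 2 and 26.3% between the set means. These shares are not divided by the number of independent deviations, which is 2 within set 1, 3 within set 2 and 1 between the means. The root mean square distance per gene was 0.234 to 0.317 log2 units between kidneys of set 1 and 0.112 to 0.155 between those of set 2. Distances across the sets ran from 0.161 to 0.288, so each was above the range of set 2, and they overlapped that of set 1. Kidney 3819 was nearer to kidney 3895 of set 2 (0.161) than to either kidney of its own set, and kidney 3818 was nearest to 3893 of set 2 (0.213). Each kidney of set 2 was nearest to another of its set. For comparison, the 2 WT controls were 0.123 apart, the IL-33-deficient pair of set 1 was 0.143 apart and the 3 of set 2 were 0.121 to 0.139 apart.

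The difference in spread was larger in brighter genes. Among 10 classes of genes by mean log2, the brightest had a median SD of 0.199 in set 1 and 0.085 in set 2. The dimmest class had 0.045 in set 1 and 0.049 in set 2. The root mean variance of set 1 was 2.10 times that of set 2, and 2.32 times among genes brighter than the median gene by mean log2. The typical gene differed less, with a median SD of 0.0746 in set 1 and 0.0656 in set 2, and 59.1% of genes varied more in set 1. Among genes brighter than the median gene this share was 73.1%, with a ratio of median SDs of 1.62. Leaving out 1 kidney of set 1, which leaves an SD of 2 kidneys, gave shares of 52.5% (3818), 46.5% (3819) and 49.1% (3820) and ratios of root mean variances of 2.40, 1.77 and 2.08. With 3 and 4 kidneys the 2 spreads were not tested against each other.

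The size of the injury response told the set 1 kidneys apart. It was measured as the projection of each kidney, minus the WT control mean, on the response to UUO of IL-33-deficient kidneys, over the 4207 genes called there (23.2% of those tested), so that 0 is the control mean and 1 the mean response of those mice. Kidneys of set 1 reached 0.564, 0.951 and 0.367. Kidneys of set 2 reached 0.884, 0.830, 0.765 and 0.855. Set 1 thus held the strongest response and the 2 weakest ones of the 7, while set 2 lay between. The means were 0.627 ± 0.297 (SD, n = 3) and 0.834 ± 0.0508 (SD, n = 4), and the difference of 0.207 had an exact two-sided permutation p of 0.257, where 35 assignments allow no p below 0.0286. The difference was 0.0764 without kidney 3820 and 0.369 without kidney 3819. Without hepatocyte genes kidney 3818 was at 0.558. Against the WT controls, 1469 genes were called in set 1 (8.10%) and 3444 in set 2 (19.0%), both against the same 2 control kidneys. These counts were 413 and 1965 without control kidney 3811, 271 and 1658 without control kidney 3812, and 2459 in set 1 without kidney 3820.

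**Figure D2:**
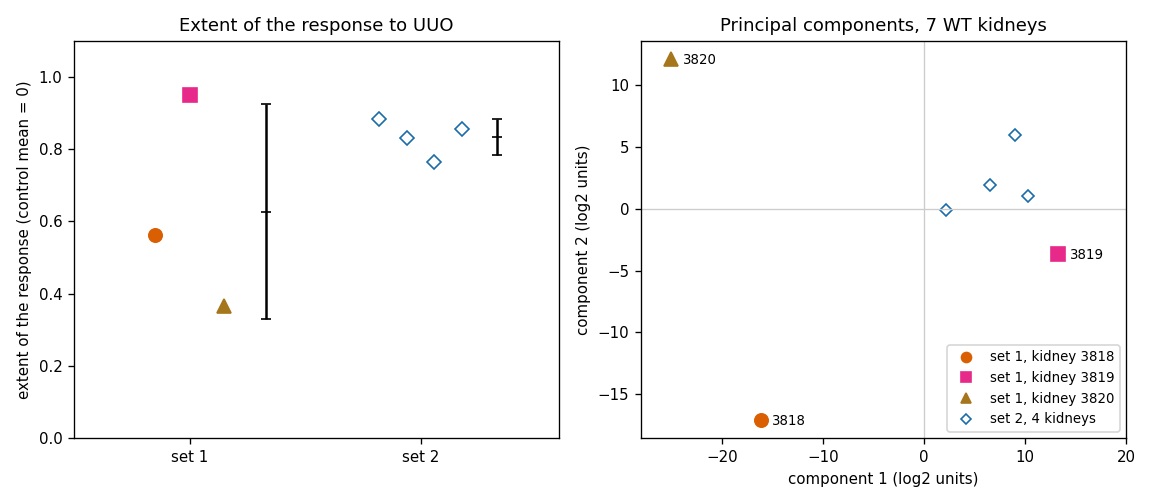
Left, extent of the response to UUO (0 is the WT control mean, no unit) in each WT kidney, with black bars for the mean and SD of each set. Right, scores of the 7 kidneys on the first 2 principal components of all genes, in log2 units. The set 2 kidneys sit together between 0.765 and 0.884 on the left, while set 1 spans 0.367 to 0.951.

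Principal components of the 7 kidneys gave the same picture with named genes. The first held 51.3% of the variance, with kidneys 3818, 3819 and 3820 at -16.2, 13.3 and -25.1 and set 2 between 2.21 and 10.2. Its high end was led by Havcr1, Plin2, which coats lipid droplets, Krt20, Hspb1 and Hmox1, and its low end by Egf, G6pc and Slc12a1, genes of the healthy tubule. The second component (19.4%) had kidney 3818 at -17.1 and kidney 3820 at 12.1. At its low end stood Mup1, Mup2 and Mup3, and at its high end Pdk4 and the immediate early genes Egr1, Junb and Fos. The third (12.9%) separated kidney 3819, at -14.4, from kidney 3894, at 8.19, with Hspa1a and Cxcl1 at one end and Pdk4 at the other.

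Injury genes, many of which also entered the extent of response, spread widely in set 1. Havcr1 was at 12.84, 13.95 and 10.42 in set 1 against 13.68, 13.54, 13.12 and 13.50 in set 2, with controls at 7.24 and 7.22. Kidney 3820 was thus the lowest of the 7, yet well above both controls. The difference between the sets was 1.06 (SE 0.73, limma adjusted p = 0.676). Lcn2, the neutrophil gelatinase-associated lipocalin secreted by injured tubules, was at 12.79, 13.62 and 11.81 against 13.42, 13.39, 13.37 and 13.61 (difference 0.71, limma adjusted p = 0.572). Il33 itself, the gene that the study deleted in other mice, was at 8.39, 9.57 and 9.10 in set 1 against 9.46, 9.46, 9.33 and 9.44 in set 2, and its sets overlapped (0.40, limma adjusted p = 0.631). Over the list of 23 measured injury genes the mean above controls was 1.76, 2.39 and 1.35 in set 1 and 2.37, 2.31, 2.06 and 2.38 in set 2. None of the 23 was called, 21 were higher in set 2, and the median difference was 0.42 beside 0.00094 over all genes. That median was 0.31 without kidney 3818, 0.76 without 3819 and 0.15 without 3820.

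Tubule genes ran the other way. Egf, epidermal growth factor of the thick limb and distal tubule, was at 8.97, 7.36 and 11.15 in set 1 against 7.29, 7.41, 7.66 and 7.23 in set 2, with controls at 12.56 and 12.05. Kidney 3820 lay closest to the controls and kidney 3819 within set 2 (difference -1.76, SE 0.76, limma adjusted p = 0.508). Slc12a1, the sodium-potassium-chloride cotransporter of the thick limb, was at 9.90, 8.38 and 10.97 against 8.06, 7.99, 9.05 and 7.83 (-1.51, limma adjusted p = 0.458). G6pc, the glucose-6-phosphatase of the proximal tubule, was at 11.78, 8.35 and 11.61 against 8.88, 9.14, 10.07 and 9.17. Of 22 genes of the thick limb and distal convoluted tubule, 19 were lower in set 2 (median -0.21, -0.42 without kidney 3819 and -0.10 without 3820), and the mean below controls was -0.69, -1.11 and -0.44 in set 1 and -1.18, -1.11, -0.93 and -1.19 in set 2. Of 26 genes of proximal tubule transport, 19 were lower (median -0.14), and the means were -0.35, -0.90 and -0.02 against -0.72, -0.54, -0.48 and -0.60. In kidney 3820 the proximal tubule list therefore stood at its control level. The medians of the proximal list were -0.08, -0.37 and 0.03 without kidneys 3818, 3819 and 3820, and its sign turned in the last case. No member of either list was called.

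**Figure D3:**
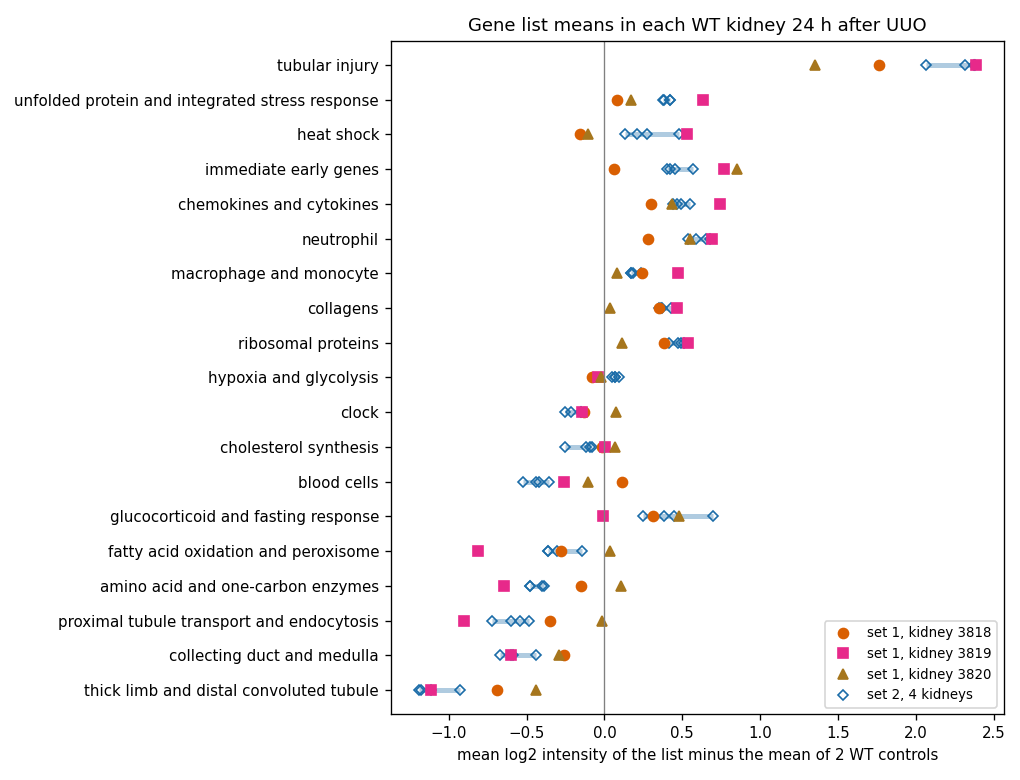
Mean log2 intensity of 19 gene lists in each WT kidney after UUO, minus the mean of the same genes in 2 WT controls (horizontal axis). Filled symbols are the 3 kidneys of set 1, open diamonds with a bar the 4 kidneys and the range of set 2. In the tubule lists at the bottom and the injury list at the top, kidneys 3818 and 3820 lie closer to the control line than set 2, and kidney 3819 lies with set 2 or beyond it.

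The role of kidney 3819 was visible in what happened without it. The count of called genes then was 1049, of which 518 were higher (2.86%) and 531 lower (2.93%) in set 2. All 1049 had the same sign with all 7 kidneys, at a smaller size, with a median absolute difference of 0.310 instead of 0.460. On a scale from the mean of kidneys 3818 and 3820 (0) to the mean of set 2 (1), kidney 3819 had a median position of 0.999 over these genes. It lay between those means in 498 of them, past the mean of set 2 in 523 and on the far side of its own set in 28. IL-33-deficient kidneys entered no part of that comparison. Of the 1049 genes, 781 were among those called there for UUO against control (74.5%, beside 23.2% of all genes). Of these, 772 had the same direction and 9 the opposite one. The share of all genes takes in dim genes too. When the 9066 genes brighter than the median gene were fitted alone, 4255 were called for that response. The shares were not compared at equal brightness.

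Of the 1049 genes, a few that act in injury or tubule transport are given here, chosen after their values were seen. Hmox1, haem oxygenase 1, was at 8.63, 10.34 and 9.04 in set 1 against 10.84, 10.60, 9.90 and 11.01 in set 2, a difference of 1.76 without kidney 3819 (limma adjusted p = 0.0218) and of 1.26 with it (0.417). Tnfrsf12a, the receptor of the cytokine TWEAK, was at 10.75, 12.49 and 11.18 against 12.36, 12.27, 11.99 and 12.35, and kidney 3819 was the highest of the 7. Among the transporters, Scnn1a, the alpha subunit of the epithelial sodium channel, was at 9.16, 8.01 and 9.35 against 8.03, 8.14, 8.06 and 7.80 (-1.25 without 3819, limma adjusted p = 0.00632). Aqp2, the vasopressin-regulated water channel of the collecting duct, was at 9.09, 7.68 and 8.84 against 8.18, 7.89, 8.32 and 7.79 (-0.92 without 3819, limma adjusted p = 0.0221). In Scnn1a kidney 3819 lay within set 2, and in Aqp2 below it. Of 25 collecting duct genes 10 were called lower without kidney 3819, as were 11 of 32 genes of amino acid and one-carbon metabolism. Among all genes 2.93% were called lower in that fit. Of 23 injury genes 7 were called higher, beside 2.86% of all genes. These lists are named because they held the most called members in their direction, and every other list held fewer. Kidney 3819 was also the kidney whose removal gave the most called genes. Whether the shares of these lists differed from those of all genes was not tested.

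A smaller group of genes separated the sets with kidney 3819 included. At the study's looser threshold (a fold of more than 1.3 with a raw p below 0.05 and an adjusted one below 0.25) 68 genes passed, 52 higher and 16 lower, which was 0.375% of all. The number rested on single kidneys: it was 0 without 3895, 14 without 3894, 18 without 3892, 26 without 3893, 29 without 3818, 73 without 3820 and 1149 without 3819. With array weights it was 596, of which 275 were higher and 321 lower, 299 with 16 arrays and 197 with 12 arrays in one model, and 38 with a variance trend. In each of the 68 the sets did not overlap, but the threshold had selected them by the same values. Over all genes every kidney of set 2 was above set 1 in 4.86% and below it in 4.22%. Rps3a1, a protein of the small ribosomal subunit, was at 9.34, 9.69 and 9.41 in set 1 against 10.21, 10.23, 10.17 and 10.21 in set 2 (0.72, SE 0.08, limma adjusted p = 0.0693). Its set 2 kidneys agreed within 0.1 and its controls, at 9.53 and 9.33, lay with set 1. Huwe1, a ubiquitin ligase, was at 7.92, 7.86 and 7.85 against 8.26, 8.20, 8.30 and 8.28 (0.39, SE 0.04, limma adjusted p = 0.0693). Gclc, the catalytic subunit that makes the glutathione precursor, was at 7.17, 7.23 and 7.31 against 7.77, 7.74, 7.60 and 7.76, and Txn1, thioredoxin, at 8.21, 8.44 and 8.27 against 8.91, 8.91, 8.77 and 9.04. Other members that were higher act in translation (Pabpc1), nuclear import (Kpnb1), splicing (Bcas2) and the mitochondrial ATP synthase (Atp5a1). The largest difference was that of Slc20a1, a phosphate and sodium cotransporter, at 7.25, 7.88 and 7.36 against 8.55, 8.41, 8.21 and 8.43 (0.90, SE 0.16, limma adjusted p = 0.143).

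Among the 16 lower genes, Timp2, an inhibitor of matrix metalloproteinases, was at 8.78, 8.82 and 8.95 in set 1 against 8.40, 8.40, 8.33 and 8.40 in set 2, with controls at 9.29 and 9.42 (-0.47, SE 0.05, limma adjusted p = 0.0693). Both sets lay below the controls, set 2 further. Serping1, the C1 inhibitor of complement, was at 10.72, 10.30 and 10.50 against 9.69, 9.86, 10.01 and 9.81 (-0.66, limma adjusted p = 0.128). Dkk3, a secreted protein of the dickkopf family, was at 8.16, 8.04 and 8.37 against 7.55, 7.65, 7.75 and 7.69 (-0.53, limma adjusted p = 0.125). Ckb, brain-type creatine kinase, was at 11.80, 11.82 and 11.75 against 11.21, 11.24, 11.49 and 11.12 (-0.53, limma adjusted p = 0.126). The lowest value of the difference was that of Cyp2d12, a cytochrome P450, at 10.27, 9.48 and 10.22 against 8.74, 8.49, 8.65 and 8.79, with controls at 11.56 and 11.08 (-1.32, SE 0.19, limma adjusted p = 0.106). Slc12a3, the thiazide-sensitive cotransporter of the distal convoluted tubule, was at 10.28, 10.06 and 10.41 against 9.85, 9.88, 9.89 and 9.81. Of the 68, 7 belonged to any of the 40 gene lists (10.3%, beside 5.13% of all genes), with 1 member each from 7 lists.

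**Figure D4:**
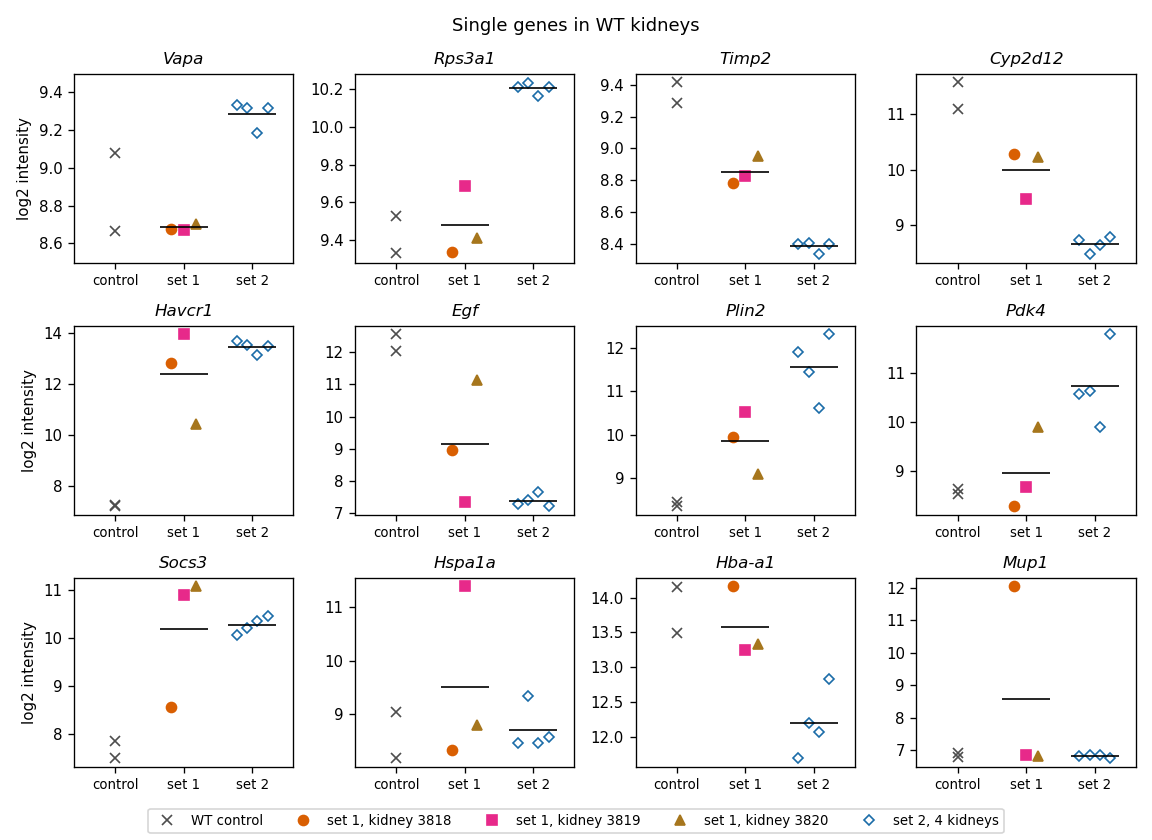
Log2 intensity of 12 genes in WT control kidneys (crosses), set 1 (filled symbols, 1 per kidney) and set 2 (open diamonds). Horizontal lines are the means of each set. Vapa, Rps3a1, Timp2 and Cyp2d12 separate the sets without overlap, Havcr1 and Egf spread in set 1 alone, and Mup1 is high in kidney 3818 alone.

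The same contrast was made in IL-33-deficient mice, 3 kidneys of set 2 against 2 of set 1. In the fit of all 12 UUO arrays, whose WT arrays share in the estimate of error, limma called no gene, with 1063 genes at an unadjusted p under 0.05 (5.86% of all). When the 5 IL-33-deficient arrays were fitted alone, 8 genes were called and 1730 had an unadjusted p under 0.05 (9.54%). The differences themselves came from these 5 arrays in either fit. Across all genes the WT and IL-33-deficient differences had a Pearson r of 0.00896, given as a description since genes are not independent, and 50.7% of genes had the same sign. Of the 68 genes, 57 had the same sign in IL-33-deficient kidneys (83.8%), and 20 (29.4%) had an unadjusted p under 0.05 in the 5 arrays alone, 19 of these in the same direction. Of the 1049 genes called without kidney 3819, which held 64 of the 68, 468 had the same sign (44.6%) and 217 such a p (20.7%), 72 of them in the same direction. Whether these shares differed between the groups of genes was not tested. Among single genes, Atp5a1 was at 9.90, 9.51 and 9.71 against 10.27, 10.24, 10.32 and 10.32 in WT kidneys (0.58). IL-33-deficient kidneys had it at 9.36 and 10.04 against 10.08, 10.39 and 10.55 (0.64). Cyp2d12 differed by -0.55 there, Serping1 by -0.41, Ckb by -0.49 and Rps3a1 by 0.34.

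The 2 IL-33-deficient kidneys of set 1 differed from each other in these genes. The mean of the 52 higher genes was 8.66, 8.73 and 8.64 in WT set 1 and lay between 9.15 and 9.25 in WT set 2. Among IL-33-deficient kidneys it was 8.85 in 3821 and 9.21 in 3822, both of set 1, and 9.15 to 9.24 in set 2. Kidney 3821 was the lower of its pair in 47 of the 52 genes, against 8739 of all 18132 genes. The 4 controls lay between 8.58 and 8.79, with WT set 1. For the 16 lower genes the mean ran from 9.38 to 9.50 in WT set 1, from 8.82 to 8.98 in WT set 2 and from 9.45 to 9.57 in the 4 controls. Kidneys 3821 and 3822 had 9.27 and 9.24, and the other IL-33-deficient kidneys after UUO 8.90 to 9.12. These means of WT set 1 were close to those of the controls, but single members were not. Among the 52, 5 were called above and 4 below control in set 1, and among the 16, 2 above and 4 below, with Cyp2d12 lowest at -1.33. Whether RNA quality, array run or the mice made this difference was not tested.

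**Figure D5:**
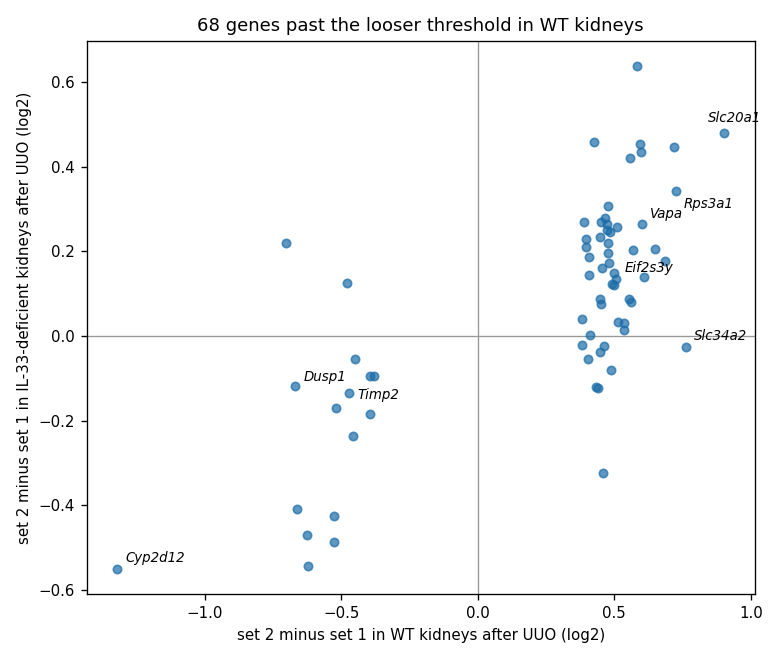
Difference between set 2 and set 1 (log2) in WT kidneys (horizontal axis) and in IL-33-deficient kidneys (vertical axis) for the 68 genes past the looser threshold in WT kidneys, 1 point per gene. Of the 68 points, 57 lie in the upper right or lower left quadrant, and none lies near zero on the horizontal axis because the threshold required a fold change above 1.3.

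No gene was called for a difference between the genotypes in the set contrast (limma interaction, smallest adjusted p = 0.161, 1226 genes at an unadjusted p under 0.05), but 665 were called without WT kidney 3819. The smallest p belonged to Sh3tc2, at 9.56, 9.44 and 9.65 against 10.02, 9.99, 9.96 and 10.07 in WT kidneys and at 10.20 and 9.95 against 9.71, 9.75 and 9.80 in IL-33-deficient ones. Its differences of 0.46 and -0.32 ran opposite ways.

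Programs other than injury and transport also varied within set 1. The heat shock list had its highest means in kidneys 3819 and 3894. Hspa1a, the inducible HSP70, was at 8.33, 11.39 and 8.79 in set 1 against 8.46, 9.35, 8.47 and 8.58 in set 2, and no other of the 16 arrays was above 9.45. Dnajb1, its co-chaperone, was at 10.17, 11.52 and 10.49 against 10.44, 10.65, 10.43 and 10.32. Hspb1, a small heat shock protein, was at 10.13, 11.69 and 9.53 against 11.17, 11.41, 11.13 and 12.43, and kidney 3894 held the highest of the 16 values. Over 24 heat shock genes the means relative to controls were -0.16, 0.53 and -0.11 against 0.21, 0.27, 0.13 and 0.48. None was called, and 20 were higher in set 2 (median 0.18). In 7 of the 24 every kidney of set 2 was above every kidney of set 1, beside 4.86% of all genes. The median was 0.09 without kidney 3818, with 15 of 24 higher, and 0.12 without kidney 3820. Genes of the unfolded protein response had means of 0.08, 0.63 and 0.17 against 0.42, 0.38, 0.38 and 0.42, so that the 4 kidneys of set 2 lay within 0.05 of each other and kidney 3819 above them.

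Immediate early genes, which respond to stimuli within minutes to hours, split set 1 differently, with the list mean high in kidneys 3819 and 3820 and low in 3818. Their means over 26 genes were 0.06, 0.77 and 0.85 in set 1 against 0.42, 0.45, 0.40 and 0.57 in set 2 (median difference -0.03, none called). The median was -0.18 without kidney 3818, with 4 of 26 genes higher, and turned to 0.05 without kidney 3820. Dusp1, a phosphatase that switches off MAP kinases and the 1 member past the looser threshold, departed from this order at 10.72, 10.60 and 11.11 in set 1, all above set 2 (at most 10.32). Fos was at 7.14, 8.19 and 9.18 against 7.61, 7.58, 7.56 and 8.10. Zfp36, which destabilises cytokine mRNA, was at 9.54, 10.47 and 11.37 against 9.57, 9.76, 9.85 and 9.89. Kidney 3820, with the weakest extent of response, held the highest of the 16 values for both. It exceeded the other 15 arrays by more than 0.5 in 23 genes, among them Kynu at 8.88 and Ccno at 8.41 (at most 7.86 and 7.31 elsewhere), where kidney 3819 did so in 6 genes, 3894 in 7, 3818 in 35 (29 of them on the hepatocyte list) and the other 3 set 2 kidneys in none. The chemokine Cxcl1 was at 10.04, 11.94 and 11.71 against 10.87, 10.68, 10.68 and 10.80, and S100a8, a neutrophil protein, at 8.71, 10.39 and 10.32 against 10.47, 10.05, 10.01 and 10.29. In kidney 3818 S100a8 thus lay with the controls, at 8.72 and 8.27. Neutrophil genes had means of 0.28, 0.69 and 0.55 against 0.65, 0.59, 0.54 and 0.68. Their list of 18 genes includes Lcn2, also secreted by injured tubules, which was 5.20 above controls in set 1 and 5.91 in set 2. The median over the members of that list was only 0.07 above controls in set 1 and 0.10 in set 2. Macrophage genes had means of 0.24, 0.47 and 0.08 against 0.17, 0.23, 0.19 and 0.17.

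Acute phase genes pulled in opposite directions within kidney 3818. These genes respond to cytokines of the interleukin-6 family, through STAT3 in many tissues and with C/EBP factors in the liver. Socs3, a STAT3-induced inhibitor of cytokine signalling, was at 8.56, 10.90 and 11.08 in set 1 against 10.06, 10.21, 10.36 and 10.46 in set 2, with controls at 7.87 and 7.51. Osmr, the oncostatin M receptor, was at 8.40, 9.97 and 9.19 against 9.69, 9.29, 9.15 and 9.54, and Cebpb at 10.57, 12.11 and 11.44 against 11.98, 11.85, 11.49 and 12.05. In all of these genes, and in Bcl3, Junb and Stat3, kidney 3818 was the lowest of the 7. Hpx and Orm1, both on the hepatocyte list, were highest there, Orm1 at 9.76 against at most 7.15. The mean of the 21 acute phase genes above controls was 1.14, 0.81 and 0.60 in set 1 and 0.81, 0.69, 0.64 and 0.83 in set 2, with kidney 3818 highest. Without the 8 hepatocyte members of this list it was 0.49, 1.24 and 0.92 against 1.15, 1.04, 0.94 and 1.22, with kidney 3818 lowest. The hepatocyte list was written after the values of kidney 3818 were seen, and most of its members were highest there. Leaving them out therefore lowers kidney 3818 by construction, and its change of rank is a description only.

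The promoters of Socs3 and Hpx are shown as the pair of acute phase genes that lay farthest apart in kidney 3818. Both are RefSeq sequences of GRCm38.p6, on the minus strand, 250 bases before to 50 bases after the start, Socs3 at chr11:117969317-117969616 and Hpx at chr7:105600067-105600366. Capitals mark a STAT-type motif, TTCNNNGAA, 154 bases before the start in Socs3, and a C/EBP-type motif, TTGCNNAA, 200 bases before the start in Hpx.
Socs3: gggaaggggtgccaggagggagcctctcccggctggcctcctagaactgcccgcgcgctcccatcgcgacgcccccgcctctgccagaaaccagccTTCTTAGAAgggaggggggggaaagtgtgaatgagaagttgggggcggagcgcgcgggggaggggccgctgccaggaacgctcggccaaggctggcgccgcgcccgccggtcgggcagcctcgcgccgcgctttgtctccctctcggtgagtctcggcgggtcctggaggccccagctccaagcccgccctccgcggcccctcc
Hpx: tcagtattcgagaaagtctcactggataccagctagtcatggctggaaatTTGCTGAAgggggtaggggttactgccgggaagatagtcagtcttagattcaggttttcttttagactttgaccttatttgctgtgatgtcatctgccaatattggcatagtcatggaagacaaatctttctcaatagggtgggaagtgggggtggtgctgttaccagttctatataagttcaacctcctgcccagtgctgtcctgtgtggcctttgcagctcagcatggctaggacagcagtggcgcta
Read on both strands (the STAT-type motif is the same on each), the STAT-type motif was in 8.30% and the C/EBP-type motif in 10.8% of all 32851 promoters. Of the 17 acute phase genes with a promoter in the table, 3 held the former (Itih4, Socs3 and Steap4) and 6 the latter (Hpx, Orm2, Saa1, Saa2, Saa3 and Steap4). A match is a description of letters and not a site of binding.

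Some genes of lipid use and fasting were highest in kidney 3894 of set 2. Pdk4, a kinase that shuts pyruvate out of the citrate cycle, was at 8.28, 8.67 and 9.89 in set 1 against 10.56, 10.64, 9.90 and 11.79 in set 2 (1.77, SE 0.51, limma adjusted p = 0.366). Angptl4, an inhibitor of lipoprotein lipase, was at 10.24, 10.26 and 10.82 against 11.02, 10.97, 10.90 and 11.99. In both genes kidney 3894 was the highest of all 16 arrays. Plin2 was at 9.94, 10.51 and 9.10 against 11.90, 11.43, 10.61 and 12.31 without overlap (1.71, SE 0.45, limma adjusted p = 0.339). Fatty acid oxidation genes were lowest in kidney 3819, with means of -0.28, -0.81 and 0.04 against -0.36, -0.30, -0.36 and -0.14, and the fasting and glucocorticoid list had 0.31, -0.01 and 0.48 against 0.38, 0.45, 0.25 and 0.70. On both lists kidney 3819 lay below all 4 kidneys of set 2.

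Only in 4 of 40 lists did the list means of the sets not overlap, and none of their members was called. Cholesterol synthesis genes had means of -0.01, 0.01 and 0.07 in set 1 and -0.12, -0.08, -0.09 and -0.25 in set 2, with 19 of 23 genes lower (median -0.15). Blood cell genes had 0.11, -0.26 and -0.10 against -0.52, -0.42, -0.44 and -0.35, although 6 of 14 were higher and 8 lower (median -0.06). The mean was drawn down by members such as Hba-a1, alpha globin, at 14.16, 13.25 and 13.34 against 11.69, 12.20, 12.06 and 12.83 (-1.39, SE 0.31, limma adjusted p = 0.252), and Alas2, the first enzyme of haem synthesis in red cell precursors, at 9.26, 7.91 and 8.11 against 7.02, 7.19, 7.08 and 7.31 (-1.28, SE 0.30, limma adjusted p = 0.276). Both were highest in kidney 3818, and the sets did not overlap in either. Clock genes had -0.13, -0.14 and 0.07 against -0.25, -0.21, -0.15 and -0.15, with 9 of 20 genes higher and 11 lower (median -0.04). Dbp was at 10.94, 10.58 and 10.93 against 9.73, 9.95, 10.59 and 10.27, where the sets just overlapped. In IL-33-deficient kidneys Dbp differed by 0.52 in the opposite direction. Hypoxia and glycolysis genes had -0.08, -0.04 and -0.02 against 0.05, 0.07, 0.07 and 0.10.

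In matrix and antigen presentation genes the list means of the sets overlapped. Collagen genes had means of 0.35, 0.47 and 0.03 in set 1 and 0.35, 0.43, 0.36 and 0.37 in set 2 (11 of 17 higher, median 0.11), with kidney 3820 low. The collagen median was 0.31 without kidney 3819 and 0.03 without kidney 3820. Col1a2, whose sets did not overlap, differed by 0.37 and Col3a1 by 0.33 (limma adjusted p = 0.370 and 0.510), and Acta2 by -0.18 (0.772). Col1a1 differed by 0.11, which turned to -0.30 without kidney 3820. Of 16 antigen presentation genes 12 were lower (median -0.09). In 4 of the 16 every kidney of set 2 was below every kidney of set 1, beside 4.22% of all genes. Among these 4 was Cd74, the invariant chain, at 10.54, 11.02 and 10.48 against 10.08, 10.26, 10.28 and 9.99 (-0.53, limma adjusted p = 0.339). Cd74 differed by -0.37 in IL-33-deficient kidneys. Ribosomal protein genes were higher in 27 of 28 (median 0.10), with means of 0.38, 0.54 and 0.12 against 0.49, 0.48, 0.51 and 0.41, and in 15 of 28 without kidney 3820.

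Across the 40 lists the range of the list mean was larger in set 1 than in set 2 for 37, the exceptions being urothelium, podocyte and cholesterol synthesis. The median range was 0.368 in set 1 and 0.101 in set 2. Kidney 3818 lay outside the range of set 2 in 33 lists, kidney 3819 in 34 and kidney 3820 in 33, and in 1 list no kidney of set 1 did.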

How the data were processed

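Gene expression was measured in 16 mouse kidneys on Illumina MouseRef-8 v2 BeadChips, 1 array per kidney, from 500 ng of RNA. The authors imported the arrays into R with beadarray and deposited linear intensities, 1 value per gene symbol, and the submitters' processing notes also name BeadStudio 2. Their background correction, normalisation and rule for joining probes are not given in the sources used here. Probes of 1 gene that disagree, and detection limits, could therefore not be examined. Array medians were nearly equal as deposited.

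The intensities were quantile normalised across all 16 arrays and turned to log2 (R 4.3.3, limma 3.58.1). Groups came from the labels. The WT sets were compared with lmFit and eBayes on their 7 arrays, the IL-33-deficient sets and the difference between genotypes on the 12 UUO arrays in 4 groups, and UUO against control on all 16 arrays in 6 groups. P-values were adjusted over all 18132 genes by the Benjamini-Hochberg method, and a gene was called at an adjusted p under 0.05. All tests were two-sided. Differences are set 2 minus set 1. Gene lists, 40 in all, are described by counts and medians, and list means are relative to the 2 WT controls. Spread, principal components and the extent of response were computed with Python 3.11.15, numpy 2.4.6 and pandas 2.3.3, and figures with matplotlib 3.10.9. The fit of the 7 WT arrays alone was tested on simulated data, on the deposited scale and with the same SD per gene in both sets. That simulation does not cover the unequal spread of the sets seen here.

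The kidneys were taken by their labels alone, but earlier results of these data were known when this comparison, the gene lists and the rules were chosen. The rule for named genes took Il33, Havcr1, Lcn2, Acta2 and 3 collagen genes, up to 12 called rises and 12 called falls or, where fewer were called, up to 6 genes of smallest p in that direction, up to 6 members per list, the 8 genes of largest SD in each set with a mean log2 over 8, and the 6 of smallest interaction p. Other genes named, among them the hepatocyte genes, Cfd, Gclc, Txn1, Atp5a1, Dkk3, Kynu and Ccno, were chosen after their values were seen. On arrays the number of kidneys limits the precision. Alternatives were the deposited scale, median centring, brighter genes only, a variance trend, array weights, wider models, genotype as a covariate, a looser threshold and leaving out each kidney.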

Additional observations from a re-analysis of the deposited data

Results flagged for a closer look

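Within set 2, 1 kidney lay far from the other 3 in 8 of 77 genes examined (the gap to the nearest, as a share of the range, exceeded Dixon's critical value), and in none of 41 list means and extents. Chance alone marks about 1 group in 20. However, the rule for named genes also took those of largest SD in set 2, and other genes were chosen after their values were seen. The 8 of 77 can therefore not be weighed against that share. Set 1, with 3 kidneys, was not examined in this way.

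Kidney 3894 was high in 3 of the 8 genes. Angptl4, the lipoprotein lipase inhibitor, was at 11.99 there and between 10.90 and 11.02 in the other 3. Hsph1, a large heat shock protein, was at 11.88 against 10.70 to 10.75. Fos, an immediate early gene, was at 8.10 against 7.56 to 7.61.

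Kidney 3893, which had the smallest extent of response in set 2, was low in 4 of them by at most 0.18 log2 units. Vapa was at 9.18 there against 9.31 to 9.33, and Timp2 at 8.33 against 8.40 in each of the others. Il33 was at 9.33 against 9.44 to 9.46, and Gclc at 7.60 against 7.74 to 7.77. In Vapa, Timp2 and Gclc these values were still clear of every kidney of set 1. Kidney 3892 was high in Hspa1a, at 9.35 against 8.46 to 8.58.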

How the results depend on the processing

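No paired analysis was possible because the array numbers are not shared between the sets. With limma, the count of genes called between the WT sets, 1 by the chosen fit, was 1 on the deposited scale, with median centring and without hepatocyte genes. It was 0 with brighter genes only, with a variance trend or with genotype as a covariate (1177, 1775 and 1833 genes at an unadjusted p under 0.05), 3 with 12 arrays and 21 with 16 arrays in one model, 17 with array weights and 68 at the looser threshold. It ran from 0 to 1049 when 1 kidney was left out, with 1299 to 1496 genes at an unadjusted p under 0.05 where it was 0, and 1049 was the value without kidney 3819. The IL-33-deficient contrast gave 8 with its 5 arrays alone and 0 to 8 when 1 kidney was left out (8 without WT kidney 3819, 1 without 3818 or 3820). The difference between genotypes gave 0 to 665 (665 without 3819). Against controls the counts ran from 271 to 2459 for set 1 and from 1658 to 3964 for set 2. Col1a1 turned from 0.11 to -0.12 with genotype as a covariate and ran from -0.30 without kidney 3820 to 0.49 without kidney 3819. The ratio of spreads stayed between 1.77 and 2.40, and the extent difference between 0.198 and 0.209 under other scalings and gene choices and between 0.0764 and 0.369 when 1 kidney was left out. Leaving out kidneys in the extent and the control contrasts, and leaving out hepatocyte genes, were chosen after seeing the data. What made these counts move was not tested.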

Other observations

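The 2 WT control kidneys were not alike in the 52 genes that were higher in set 2 at the looser threshold, although neither entered that comparison. Control kidney 3812 was below control kidney 3811 in 45 of the 52, while IL-33-deficient kidney 3821 was below 3822 in 47 of them. Over all 18132 genes the corresponding numbers were 8994 and 8739. Whether these kidneys shared anything with set 1 is not given in the sources used here, and the cause was not tested.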
